A study of Mus musculus with 2 samples.

Results

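The glutathione and antioxidant genes described here encode the enzymes and small proteins that remove superoxide, peroxides and reactive electrophiles, together with NRF2, the transcription factor best known for inducing many of them. They were taken by a list of symbols that uses no measured value, and the list itself was drawn up with earlier results of these data known. It names the superoxide dismutases, catalase, glutathione peroxidases, peroxiredoxins, thioredoxins and their reductases, the glutathione S-transferases (GSTs), the enzymes that make and reduce glutathione, the heme oxygenases, *Nqo1*, *Srxn1*, *Nfe2l2*, *Mt1* and *Mt2*. The rule found 55 of the 18159 gene symbols listed. Expression was measured by mRNA-seq in the jejunal tunica muscularis, that is, the smooth muscle layers of the middle small intestine after removal of the mucosa, of *Dnmt1*-WT and *Dnmt1*-KO mice aged 15 days (P15) on a C57BL/6 background. The strain label of both samples names the same line, with a transgene that expresses *Cre* and *EGFP* under the *Myh11* promoter and a loxP-flanked *Dnmt1* allele. The study describes the *Dnmt1*-WT mice as carriers of the *Cre* transgene, so recombinase was present in both genotypes, and deletion was limited to cells that use the *Myh11* promoter. The free-text description of the *Dnmt1*-WT sample names the knockout, whereas its title and genotype label give *Dnmt1*-WT, and it was used as *Dnmt1*-WT. Each genotype had 1 library, for which mice of both sexes were used, and how they were combined is not stated.

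Values are FPKM, that is, fragment numbers corrected for the length of the transcript and the size of the library, so levels can be compared between genes. With 1 library per genotype there was no spread between replicates to set a difference against, and no difference below has a replicate check or a p-value. The values hold no read counts per gene, so no counting interval was computed. A gene is called higher or lower here when its FPKM in *Dnmt1*-KO divided by that in *Dnmt1*-WT was at least 2 or at most 0.5, which describes these 2 libraries only. *Dnmt1* itself was listed at 11.58 FPKM in *Dnmt1*-WT and 7.58 FPKM in *Dnmt1*-KO, a ratio of 0.655. All 10 smooth muscle markers, such as *Acta2* and *Myh11*, were present in both libraries, and their summed level was 19545 FPKM in *Dnmt1*-WT and 13370 FPKM in *Dnmt1*-KO. Because the tissue is a mixture of cell types, fewer cells of a type and less RNA per cell cannot be told apart in any of these values.

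Superoxide is converted to hydrogen peroxide by superoxide dismutases, and hydrogen peroxide is then removed by catalase, by glutathione peroxidases at the expense of glutathione, and by peroxiredoxins at the expense of thioredoxin. GSTs couple glutathione to electrophiles, and metallothioneins are small cysteine-rich proteins that bind zinc and copper. In the promoters of NRF2-responsive genes the factor binds antioxidant response elements, while the zinc sensor MTF1 acts on metallothionein genes through metal response elements. In the gut wall these systems limit oxidant damage, for example during inflammation.

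Of the 55 genes, 27 had a ratio between 0.8 and 1.25 and 12 had a ratio of at least 2, with the others between or below these ranges. All 55 were above 0 FPKM in both libraries. The 12 made up 21.8%, beside 11.8% of the 16102 genes above 0 FPKM in both libraries. None had a ratio of 0.5 or less, beside 4.98% of all genes. Among the 37 that reached 10 FPKM in at least 1 library, 6 had a ratio of at least 2, or 16.2%, against 5.20% of the 7054 genes at that level, and again none was at 0.5 or less, against 2.93%. Of these 6, *Mgst2*, at 1.75 and 11.14 FPKM, reached 10 FPKM only in *Dnmt1*-KO, so its own change admitted it. With 1 FPKM in at least 1 library asked for, 11 of 52 passed the upper limit, beside 9.14% of all genes, and none the lower, beside 3.67%. *Gpx2*, *Gstp2*, *Gstm3* and *Gstm6*, all among the 11, reached 1 FPKM only in *Dnmt1*-KO, so their own change admitted them. At a milder limit of 1.5-fold, 18 of the 55 were higher, beside 19.7% of all genes, and 1, *Gstt1*, was lower, beside 12.6%, and at 10 FPKM or more these numbers were 11 of 37 beside 11.2% and 1 of 37 beside 10.3%. *Mgst2* and *Srxn1*, both among the 11 of 37, reached 10 FPKM only in *Dnmt1*-KO. The ratio lay between 0.8 and 1.25 for 20 of these 37, or 54.1%, and for 54.1% of all genes at that level. Across the 52 that reached 1 FPKM in at least 1 library, the median log2 ratio of FPKM + 0.1 was 0.25, and it was -0.01 across all 13865 such genes.

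**Figure D1:**
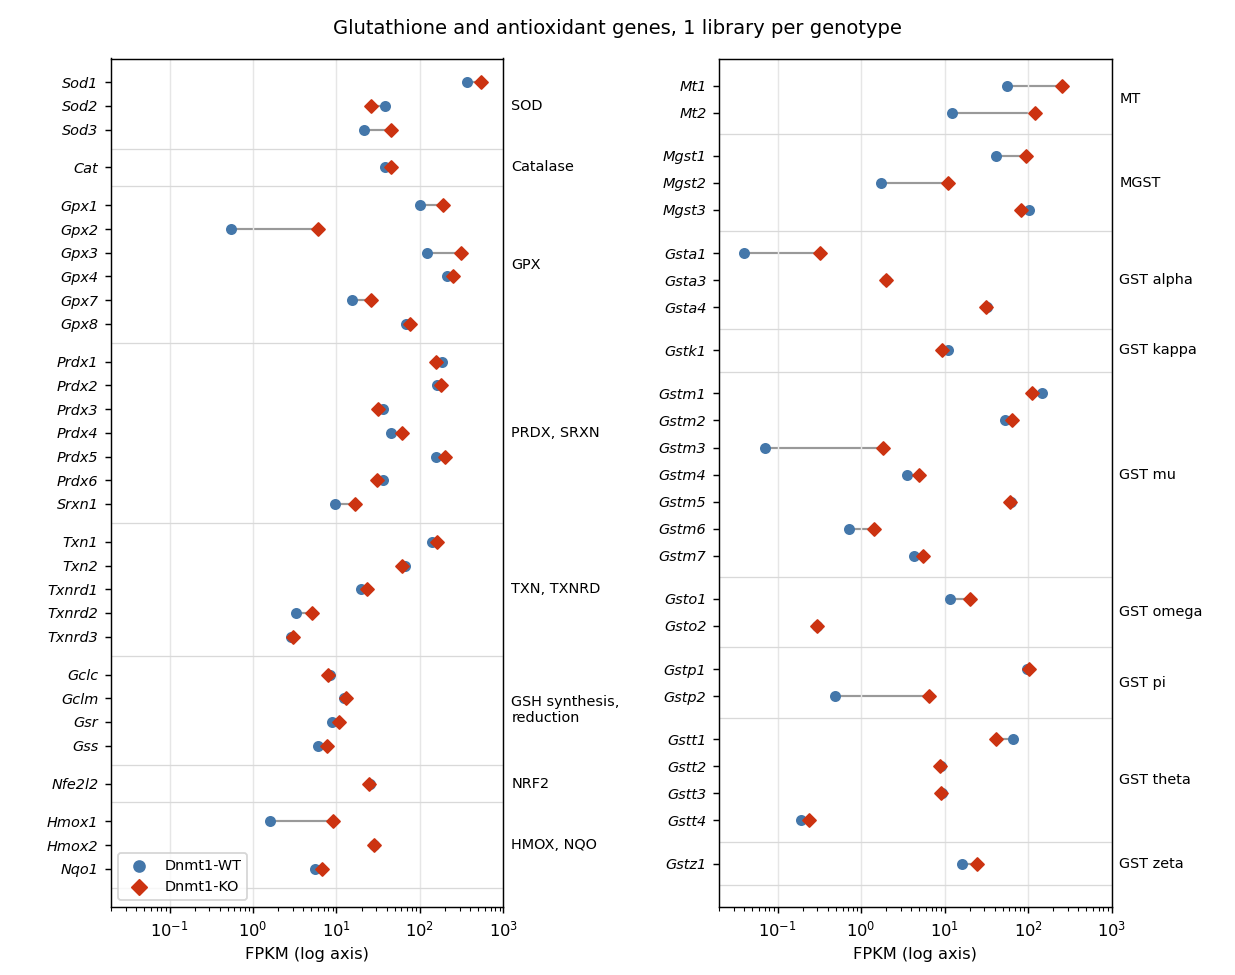
FPKM of the 55 glutathione and antioxidant genes (log axis) in the *Dnmt1*-WT library (circles) and the *Dnmt1*-KO library (diamonds), grouped by role, with 1 library per genotype and no error bars. Many pairs lie close together, while *Mt1*, *Mt2*, *Gpx2*, *Gpx3*, *Hmox1*, *Mgst1*, *Mgst2*, *Sod3*, *Gstm3*, *Gstm6*, *Gsta1* and *Gstp2* lie at ratios of 2 or more.

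**Figure D2:**
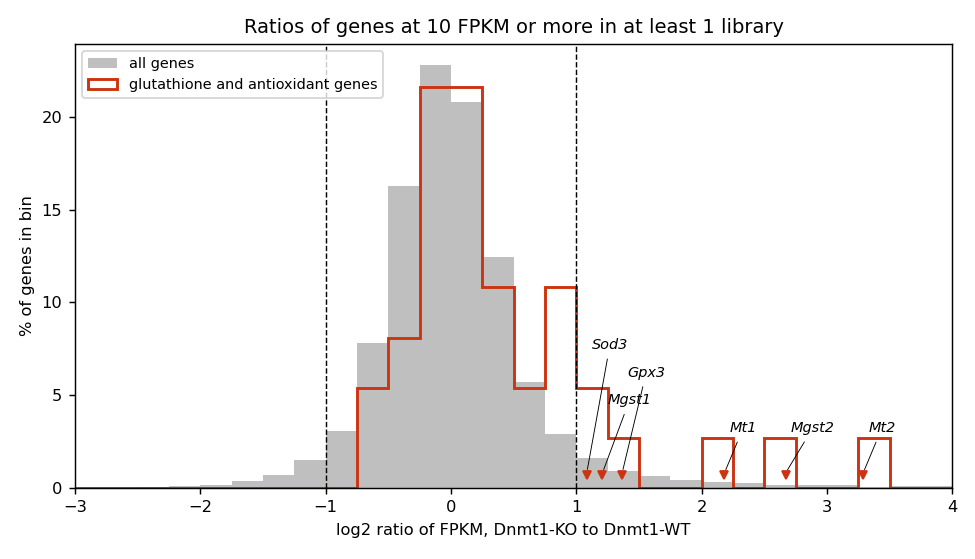
Distribution of the log2 ratio of FPKM, *Dnmt1*-KO to *Dnmt1*-WT, as % of genes per bin, for the 7054 genes with nonzero values in each library and at least 10 FPKM in 1 of them (grey) and for the 37 glutathione and antioxidant genes among them (red outline), with dashed lines at ratios of 0.5 and 2 and 35 of all genes outside the axis. The 6 named genes lie beyond the upper line and none lies beyond the lower one.

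Of the groups by role, the metallothioneins had the largest ratio of summed levels, 5.48. *Mt1*, on chromosome 8 of GRCm38 from 94179082 to 94180327, was listed at 56.38 FPKM in *Dnmt1*-WT and 255.82 FPKM in *Dnmt1*-KO, a ratio of 4.54. *Mt2*, which lies next to it from 94172664 to 94173568 on the same plus strand, was listed at 12.31 and 120.32 FPKM, a ratio of 9.77. Only 43 of the 7054 genes at 10 FPKM or more had a larger ratio than *Mt2*. Together both genes went from 68.7 to 376 FPKM, and no stretch of 50 bases in their transcripts is shared with another annotated gene. Their relative *Mt3*, named here after its value was seen, was listed at 31.34 and 60.1 FPKM. *Mtf1*, which encodes the zinc sensor, was at 4.57 and 3.83 FPKM, and *Slc30a1*, the zinc exporter also known as an MTF1 target, was at 4.82 and 5.34 FPKM.

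The promoters of both genes are shown because these neighbours had high ratios together. The windows, taken from RefSeq for GRCm38.p6, run from 250 bases before to 50 bases after the RefSeq start of the gene, at chr8:94172368-94172667 for *Mt2* and chr8:94178839-94179138 for *Mt1*, both on the plus strand and written 5′ to 3′. Capitals mark metal response elements, searched as TGCACNC and TGCGCNC, and antioxidant response elements, searched as TGACNNNGC, on both strands.
Mt2: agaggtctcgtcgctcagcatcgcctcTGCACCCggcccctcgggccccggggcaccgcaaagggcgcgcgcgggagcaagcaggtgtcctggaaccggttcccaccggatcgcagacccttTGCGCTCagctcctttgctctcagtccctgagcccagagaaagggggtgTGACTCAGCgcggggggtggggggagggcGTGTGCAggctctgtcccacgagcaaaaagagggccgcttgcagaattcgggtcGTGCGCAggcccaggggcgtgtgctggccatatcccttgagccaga
Mt1: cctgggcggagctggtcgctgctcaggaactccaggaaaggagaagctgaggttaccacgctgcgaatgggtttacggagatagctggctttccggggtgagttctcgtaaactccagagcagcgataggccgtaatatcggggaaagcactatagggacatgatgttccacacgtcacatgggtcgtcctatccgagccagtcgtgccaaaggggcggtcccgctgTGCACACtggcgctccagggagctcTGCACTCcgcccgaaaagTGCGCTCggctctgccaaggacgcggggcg

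In the *Mt2* window 4 metal response elements were found, starting at positions -223, -128, -50 and 5 relative to the RefSeq start, and in the *Mt1* window 3, starting at -23, 3 and 21. The RefSeq start of *Mt2* lies upstream of the gene start given above and in no GENCODE transcript, so its positions do not count from that start. Positions in both windows count from an annotated start, and where transcription begins in this tissue was not measured. At least 3 matches were present in 1.97% of all 32851 promoter windows of this length, and at least 1 in 25.7%. The window of *Gclm*, shown further on, also holds 3, starting at -138, -72 and 28, and the ratio of that gene was 1.06. The *Mt2* window also holds an antioxidant response element of the sequence TGACTCAGC from -79 to -71, which contains an AP-1 site (TGANTCA). None was found in the *Mt1* window, but sequence beyond the windows was not searched, so *Mt1* may carry one elsewhere. These matches describe the sequence only. A window was found for 48 of the 55 genes, that is, for all but *Gsr*, *Gstt2*, *Gsta4*, *Prdx6*, *Gclc*, *Sod3* and *Hmox1*. Among these 48, 16 had a metal response element, 33.3% beside 28.2% of all genes, and their ratios ran from 0.630 for *Gstt1* to 13.4 for *Gstp2*.

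All 6 glutathione peroxidases had larger values in *Dnmt1*-KO, and their summed level was 517 FPKM in *Dnmt1*-WT and 856 FPKM in *Dnmt1*-KO. *Gpx3*, the secreted plasma form, on chromosome 11 from 54902453 to 54910377, was listed at 120.23 and 309.8 FPKM, a ratio of 2.58. *Gpx2*, the form best known from gastrointestinal epithelium, on chromosome 12 from 76792333 to 76795554, was at 0.55 and 5.97 FPKM, a ratio of 10.9, or 4.5 with FPKM + 1 in place of FPKM. These were the 2 genes of the class that passed the limit, one abundant and the other near the low end of the scale in *Dnmt1*-WT. *Gpx1*, the ubiquitous cytosolic form, had 99.99 and 190.11 FPKM and a ratio of 1.90, and *Gpx7*, of the endoplasmic reticulum, 15.14 and 26.23 FPKM and a ratio of 1.73. *Gpx4*, which reduces lipid hydroperoxides in membranes, was at 212.85 and 247 FPKM, and *Gpx8* at 68.09 and 76.4 FPKM. The ratios of these last genes, 1.16 and 1.12, lay within the range where most genes were found. Of the transcript sequence of *Gpx4*, 34.7% of 50-base stretches also occur in the annotated copy *Gpx4-ps2*, so reads could be split between them.

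The superoxide dismutases did not move together. *Sod1*, the cytosolic copper-zinc enzyme on chromosome 16 from 90220754 to 90226329, was the most abundant of all 55 genes in both libraries, at 367.51 FPKM in *Dnmt1*-WT and 538.04 FPKM in *Dnmt1*-KO, a ratio of 1.46. *Ccs*, which loads copper into this enzyme, was at 37.73 and 36.53 FPKM. *Sod3*, the secreted enzyme of the extracellular matrix, on chromosome 5 from 52363791 to 52371418, was at 21.08 and 44.66 FPKM, a ratio of 2.12. *Sod2*, the manganese enzyme of the mitochondrial matrix, on chromosome 17 from 13006846 to 13040063, was at 38.62 and 26.16 FPKM, a ratio of 0.677. *Sod3* and *Sod2* were thus the extremes in opposite directions, although *Sod2* did not reach the limit of 0.5. Of its 50-base stretches, 21% occur in other annotated genes. Dividing each library by its FPKM sum put *Sod3* just below the limit, at 1.98. Catalase, the peroxisomal enzyme that breaks down hydrogen peroxide without glutathione, was at 38.54 and 45.16 FPKM.

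None of the peroxiredoxins or thioredoxin genes passed a ratio of 2. The most abundant peroxiredoxin in *Dnmt1*-WT was the cytosolic *Prdx1*, at 183.9 FPKM, and it was at 153.84 FPKM in *Dnmt1*-KO, a ratio of 0.837. *Prdx2*, abundant in red cells, was at 159.4 and 177.32 FPKM, and *Prdx5*, found in mitochondria, peroxisomes and cytosol, at 157.79 and 199.1 FPKM. Their order in level therefore differed between the libraries, with *Prdx5* highest in *Dnmt1*-KO, but all ratios were within 0.837 and 1.35. *Prdx3*, the mitochondrial form, was at 36.51 and 31.47 FPKM, *Prdx4*, of the endoplasmic reticulum, at 44.55 and 60.23 FPKM, and *Prdx6*, which uses glutathione in place of thioredoxin, at 35.82 and 30.65 FPKM. *Srxn1*, which encodes the enzyme that repairs overoxidized peroxiredoxins, had the largest ratio of this class, 1.71, from 9.64 to 16.48 FPKM.

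The 5 thioredoxin and thioredoxin reductase genes had ratios between 0.923 and 1.58. The cytosolic *Txn1* was at 139.97 and 157.98 FPKM and the mitochondrial *Txn2* at 66.64 and 61.54 FPKM. Of the reductases that return thioredoxin to its reduced form, *Txnrd1* was at 19.79 and 23.05 FPKM, *Txnrd2* at 3.24 and 5.11 FPKM and *Txnrd3* at 2.83 and 3.03 FPKM. The largest ratio was that of *Txnrd2*, which encodes the mitochondrial reductase. *Txnip*, whose product binds and inhibits thioredoxin, was at 219.66 FPKM in *Dnmt1*-WT and 156.17 FPKM in *Dnmt1*-KO.

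Genes of glutathione synthesis and reduction had similar levels in both libraries. The catalytic and modifier subunits of glutamate-cysteine ligase, the first and limiting step, are encoded by *Gclc* and *Gclm*, which were at 8.29 and 7.95 FPKM and at 12.38 and 13.1 FPKM. *Gss*, the second step, was at 5.97 and 7.77 FPKM, and *Gsr*, which reduces oxidized glutathione, at 8.75 and 10.64 FPKM. All 4 ratios were between 0.959 and 1.30. *Nfe2l2*, which encodes NRF2, was listed at 25.17 and 24.75 FPKM, a ratio of 0.983. *Nqo1*, a quinone reductase and one of the best known NRF2 targets, was at 5.5 and 6.8 FPKM, a ratio of 1.24.

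Heme oxygenases differed from each other. *Hmox1*, the inducible enzyme that breaks down heme, on chromosome 8 from 75093621 to 75100589, was at 1.6 FPKM in *Dnmt1*-WT and 8.99 FPKM in *Dnmt1*-KO, a ratio of 5.62. The constitutive *Hmox2* was nearly identical in both libraries, at 28.11 and 28.08 FPKM. *Hmox2* was therefore the more abundant gene in both, although the gap was smaller in *Dnmt1*-KO. Genes of the next step, *Blvra* and *Blvrb*, encode biliverdin reductases and were at 17.75 and 20.48 FPKM and at 27.08 and 31.3 FPKM. *Ftl1*, the ferritin light chain that stores iron, was at 322.05 and 660.76 FPKM, a ratio of 2.05, and the heavy chain *Fth1* at 1047.3 and 1207.83 FPKM.

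Antioxidant response elements are shown for *Gclm* and *Prdx1*, which carry a match and had ratios of 1.06 and 0.837, for comparison with *Mt2* above. These genes were picked with their ratios known. The windows are chr3:122245307-122245606 and chr4:116685349-116685648 of GRCm38.p6, both on the plus strand, with the antioxidant response element (TGACNNNGC, either strand) in capitals and the metal response elements of *Gclm* not marked.
Gclm: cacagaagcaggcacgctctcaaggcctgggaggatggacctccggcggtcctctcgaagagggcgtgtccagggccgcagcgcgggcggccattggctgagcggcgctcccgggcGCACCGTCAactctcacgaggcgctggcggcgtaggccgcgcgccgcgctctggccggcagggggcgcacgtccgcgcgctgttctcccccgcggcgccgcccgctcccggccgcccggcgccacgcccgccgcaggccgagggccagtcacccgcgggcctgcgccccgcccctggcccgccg
Prdx1: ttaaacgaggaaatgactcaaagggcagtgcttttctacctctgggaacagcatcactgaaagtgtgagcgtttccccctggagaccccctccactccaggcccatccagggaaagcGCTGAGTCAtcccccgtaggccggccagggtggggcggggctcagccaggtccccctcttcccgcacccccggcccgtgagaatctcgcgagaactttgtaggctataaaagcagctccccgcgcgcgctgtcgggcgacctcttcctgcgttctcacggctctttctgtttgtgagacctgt

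In *Gclm* the match lies on the minus strand from -134 to -126, and in *Prdx1* also on the minus strand from -133 to -125. An AP-1 site from -131 to -125 overlaps it in *Prdx1*, as one does in *Mt2*, and another in *Prdx1*, from -237 to -231, does not. An antioxidant response element was found in 11 of the 48 genes with a window, 22.9% beside 14% of all genes. The ratios of these 11 ran from 0.837 for *Prdx1* to 9.77 for *Mt2*, with a median of 1.16. Besides *Mt2*, the only one with a ratio of at least 2 was *Mgst1*. A gene without a match in this window may carry one elsewhere.

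The GSTs were mixed, and the 4 genes with a ratio of at least 2, *Gsta1*, *Gstm3*, *Gstm6* and *Gstp2*, reached at most 6.55 FPKM. Over all 20 cytosolic and kappa GST genes the summed level was 528 FPKM in *Dnmt1*-WT and 508 FPKM in *Dnmt1*-KO. The most abundant were the mu class gene *Gstm1*, at 148.96 and 112.46 FPKM, and the pi class gene *Gstp1*, at 97.33 and 102.21 FPKM. *Gstt1*, of the theta class, had the lowest ratio of all 55 genes, 0.630, from 66.16 to 41.66 FPKM. Of the other theta genes, *Gstt2* was at 9.03 and 8.88 FPKM and *Gstt3* at 9.39 and 9.04 FPKM. *Gsto1*, of the omega class, was at 11.47 and 20.17 FPKM, and *Gstz1*, of the zeta class, which also acts in tyrosine breakdown, at 16.38 and 24.82 FPKM. *Gsta4*, which conjugates the lipid peroxidation product hydroxynonenal, was at 32.17 and 31.26 FPKM, *Gsta3* at 1.99 and 1.97 FPKM and the kappa gene *Gstk1* at 11.06 and 9.36 FPKM.

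The mu class genes form a cluster on chromosome 3, from *Gstm5* starting at 107895821 to *Gstm4* ending at 108044894. Across it, *Gstm1* was lower in value in *Dnmt1*-KO, while *Gstm2* was at 52.65 and 64.47 FPKM and *Gstm5* at 62.11 and 60.16 FPKM. *Gstm4*, at 3.58 and 4.89 FPKM, and *Gstm7*, at 4.25 and 5.56 FPKM, had ratios of 1.37 and 1.31. The ratio was at least 2 for *Gstm3*, from 0.07 to 1.85 FPKM, and for *Gstm6*, from 0.71 to 1.44 FPKM. *Gstm3* had the largest ratio of all 55 genes, 26.4, but from a value close to the lower end of the scale, and 28.8% of its 50-base stretches occur in other annotated genes, 9.83% in *Gstm1*. With FPKM + 1 in place of FPKM, its ratio was 2.66 and that of *Gstm6* 1.43, below the limit.

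The pi class genes *Gstp1* and *Gstp2* are neighbouring copies on the minus strand of chromosome 19, from 4035407 to 4037985 and from 4040285 to 4046023. *Gstp2* was listed at 0.49 and 6.55 FPKM, a ratio of 13.4, or 5.07 with FPKM + 1, whereas *Gstp1* had a ratio of 1.05. Of the 50-base stretches in *Gstp2* transcripts, 49.1% also occur in *Gstp1*, so the difference at *Gstp2* is uncertain wherever shared reads were divided between them. Their summed level was 97.8 FPKM in *Dnmt1*-WT and 109 FPKM in *Dnmt1*-KO, a ratio of 1.11. Their promoters, at chr19:4042172-4042471 for *Gstp2* and chr19:4037863-4038162 for *Gstp1* of GRCm38.p6, are shown because the copies are alike in sequence and had different ratios. Capitals mark the AP-1 site (TGANTCA, both strands), which is in 7.81% of all windows and in 7 of the 48 genes with a window, or 14.6%, beside 8.97% of all genes.
Gstp2: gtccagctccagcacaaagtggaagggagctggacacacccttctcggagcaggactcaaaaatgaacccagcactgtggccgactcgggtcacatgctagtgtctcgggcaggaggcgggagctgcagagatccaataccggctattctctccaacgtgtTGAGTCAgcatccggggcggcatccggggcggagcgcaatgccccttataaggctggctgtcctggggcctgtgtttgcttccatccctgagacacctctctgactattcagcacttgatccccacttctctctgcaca
Gstp1: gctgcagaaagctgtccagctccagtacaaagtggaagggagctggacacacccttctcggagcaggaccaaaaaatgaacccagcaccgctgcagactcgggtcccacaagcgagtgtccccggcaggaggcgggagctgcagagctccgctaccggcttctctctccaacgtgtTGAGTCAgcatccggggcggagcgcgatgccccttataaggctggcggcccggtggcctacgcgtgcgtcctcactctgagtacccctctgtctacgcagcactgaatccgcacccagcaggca

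In both the AP-1 site reads TGAGTCA, from -89 to -83 in *Gstp2* and from -74 to -68 in *Gstp1*. Of 281 aligned bases, 246 were identical, or 87.5%. The *Gstp2* window also holds a metal response element from -58 to -52 on the minus strand. *Gsta1*, at 0.04 and 0.32 FPKM, shares 90.5% of its 50-base stretches with other annotated genes and cannot be read apart from them. The remaining genes below 1 FPKM in both libraries were *Gsto2*, listed at 0.3 FPKM in both, and *Gstt4*, at 0.19 and 0.24 FPKM.

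Microsomal GSTs are membrane proteins unrelated to the soluble ones. *Mgst1*, which also reduces lipid peroxides, on chromosome 6 from 138140316 to 138156755, was at 40.96 FPKM in *Dnmt1*-WT and 94.64 FPKM in *Dnmt1*-KO, a ratio of 2.31. *Mgst2*, which can also form a leukotriene, on chromosome 3 from 51660360 to 51682677, was at 1.75 and 11.14 FPKM, a ratio of 6.37. *Mgst3* was the exception, at 102.56 and 82.16 FPKM, a ratio of 0.801. *Mgst1* thereby became the most abundant of these genes in *Dnmt1*-KO, in place of *Mgst3*.

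The summed level of all 55 genes was 2681 FPKM in *Dnmt1*-WT and 3609 FPKM in *Dnmt1*-KO, or 0.624% and 0.783% of all FPKM, a ratio of 1.35. Without *Mt1* and *Mt2* the ratio was 1.24. *Mt1*, *Gpx3*, *Sod1*, *Mt2* and *Gpx1* made up 70.6% of the summed increases, with differences of 199, 190, 171, 108 and 90.1 FPKM. The 17 genes with a smaller value in *Dnmt1*-KO had summed differences of -145 FPKM, led by *Gstm1*, *Prdx1*, *Gstt1* and *Mgst3*.

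Transcript length moved with the ratios. Genes of the group have short transcripts, with a median of 987 bases against 2057 bases over all genes, and in the shortest of 10 equal bins of genes at 10 FPKM or more, up to 716 bases, the median log2 ratio was 0.17 and 10.7% had a ratio of at least 2. In the longest bin, from 4662 bases, these values were -0.26 and 1.33%. Of the genes at 10 FPKM whose transcripts fall between the quartiles of the group, 819 and 1489 bases, 7.25% had a ratio of at least 2, beside 2 of 17 glutathione and antioxidant genes, and 1.37% were at 0.5 or less, beside 0. After each ratio was centred on the median of its length bin, an alternative chosen after seeing the data, 11 of the 55 genes had a ratio of at least 2, beside 11.5% of all genes with a transcript length, and at 10 FPKM or more 6 of the 37, beside 4.93%. These 6 again included *Mgst2*, which reached 10 FPKM only in *Dnmt1*-KO. *Sod3*, at 3738 bases, was the only one of the 6 with a long transcript.

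**Figure D3:**
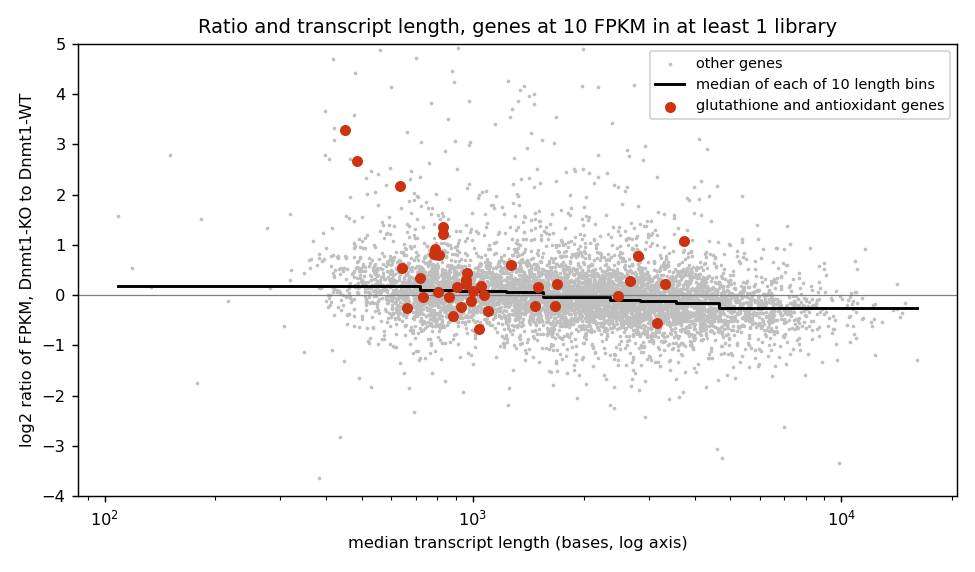
Log2 ratio of FPKM, *Dnmt1*-KO to *Dnmt1*-WT, against median transcript length (bases, log axis) for genes at 10 FPKM or more in at least 1 library, with 14 of 6789 genes outside the axis. The black line gives the median of each of 10 length bins and goes from 0.17 to -0.26, and the 37 red points are the glutathione and antioxidant genes, most of them with short transcripts.

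The wider pathway was read through 9 lists of genes of known function, which held 195 listed genes that are no members of the group. Of the 183 above 0 FPKM in both libraries, 25 had a ratio of at least 2, or 13.7%, and 8 of 0.5 or less, or 4.37%, beside 11.8% and 4.98% of all genes. Among 16 listed regulators of NRF2, including its inhibitor *Keap1* at 22.61 and 22.78 FPKM, only *Maff*, a small MAF partner, passed the limit, from 2.65 to 15.05 FPKM, a ratio of 5.68. The most abundant gene of this list was the autophagy adaptor *Sqstm1*, at 121.94 and 144.58 FPKM. Among 27 other NRF2 target genes above 0 in both libraries, which include *Gpx2*, 6 were higher and 1 lower. *Akr1b8*, *Akr1c12* and *Akr1c13* encode aldo-keto reductases and had ratios of 2.17, 4.38 and 5.12, while *Trib3*, also a gene of the stress response to amino acid shortage, went from 0.55 to 3.14 FPKM. *Slc6a9*, a glycine transporter, was lower, at 15.81 and 7.48 FPKM, and *Slc7a11*, the cystine importer, was listed at 0.12 and 0.07 FPKM.

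Genes of glutathione breakdown and cysteine supply included 7 with a ratio of at least 2 and 3 of 0.5 or less, of 23 above 0 in both. The dipeptidase gene *Dpep1* was at 2.95 and 24.26 FPKM, a ratio of 8.22, and *Dpep3* was listed at 0 in *Dnmt1*-WT and 6.75 FPKM in *Dnmt1*-KO. *Chac1*, which degrades glutathione inside the cell, was at 0.46 and 2.96 FPKM, *Ggct* at 0.83 and 2.37 FPKM, *Slc3a1* at 0.91 and 2.93 FPKM, *Dpep2* at 0.62 and 1.55 FPKM and *Anpep*, an enterocyte peptidase, at 10.07 and 20.61 FPKM. *Ggt1*, which cleaves extracellular glutathione, was lower, at 1.58 and 0.73 FPKM, and so was the mitochondrial carrier *Slc25a40*, at 4.83 and 2.41 FPKM, while its more abundant relative *Slc25a39* was at 64.5 and 66.9 FPKM. Of the 16 genes of NADPH supply, which feeds the reductases, none was higher and *Me3* was lower, at 3.07 and 0.79 FPKM, and the most abundant, *Idh2*, was at 118.97 and 98.53 FPKM. None of the 22 glutaredoxins and thioredoxin partners passed in either direction.

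Oxidant producing enzymes had 7 of 20 genes with a ratio of at least 2. *Cybb*, *Ncf1* and *Ncf4*, subunits of the NADPH oxidase of phagocytes, had ratios of 3.17, 3.92 and 4.24 at levels of 0.5 to 5.64 FPKM. *Cyba*, a more abundant subunit, was at 74.63 and 121.06 FPKM, a ratio of 1.62, and did not pass the limit. Xanthine dehydrogenase, *Xdh*, was at 5.83 and 18.31 FPKM, *Nos3* at 1.24 and 5.25 FPKM and *Nos2* at 0.35 and 1.18 FPKM. *Maob*, a monoamine oxidase, was lower, from 71.15 to 20.02 FPKM, a ratio of 0.281, and *Aoc3*, the gene of this list with the highest mean of both libraries, was at 129.98 and 88.09 FPKM. Beside these values, all 11 macrophage markers had larger values in *Dnmt1*-KO, with a summed level of 152 FPKM in *Dnmt1*-WT and 527 FPKM in *Dnmt1*-KO and none at 0. Their part in the result was not tested.

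Among other genes of the oxidative stress response, 2 of 30 were higher and 2 lower. *Sesn2*, a stress-induced sestrin, was at 1.72 and 5.59 FPKM, and *Aifm2*, which protects membranes from lipid peroxidation without glutathione, at 6.98 and 17.53 FPKM. *Glo1*, which detoxifies methylglyoxal with glutathione, went from 66.39 to 32.59 FPKM, a ratio of 0.491. The most abundant gene of this list, *Park7*, was at 180.88 and 231.47 FPKM. Of 19 genes of metal binding and the zinc response, ceruloplasmin, *Cp*, at 1.23 and 6.29 FPKM, and the zinc transporter *Slc30a2*, at 0.44 and 2.07 FPKM, were higher, and the copper chaperone *Atox1* was at 87.25 and 169.38 FPKM, a ratio of 1.94. In the list of other selenoprotein genes, which leaves out the peroxidases and reductases above, none at 1 FPKM or more passed the limit, and *Sepw1* was the most abundant, at 482.51 and 562.08 FPKM.

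**Figure D4:**
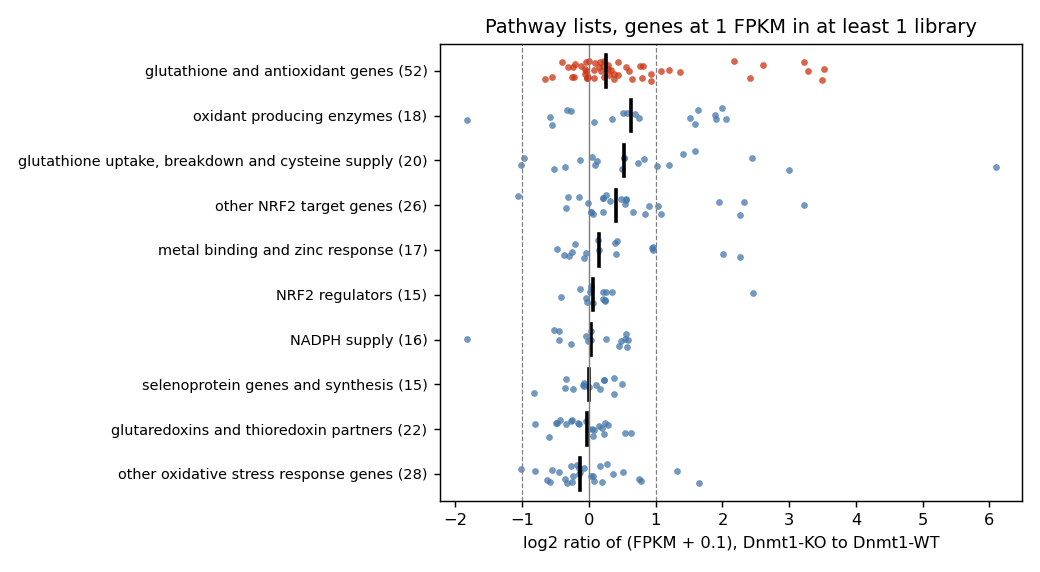
Log2 ratio of FPKM + 0.1, *Dnmt1*-KO to *Dnmt1*-WT, of each gene that reached 1 FPKM in at least 1 library, for the glutathione and antioxidant genes (red) and the 9 pathway lists (blue, number of genes in brackets), with medians as black bars and dashed lines at -1 and 1. List medians lie between -0.14 and 0.64, and that of the glutathione and antioxidant genes is 0.25.

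Markers of several other cell types also differed between the libraries. Enterocyte markers had larger values in *Dnmt1*-KO for 11 of 12 genes, with a summed level of 499.6 and 1079 FPKM and none at 0, and they stand beside the ratio of *Gpx2*. Of the 12, 6 had a ratio of at least 2, while *Sis* was lower, at 1.93 and 0.51 FPKM. Paneth cell markers, also of the epithelium, had larger values for all 8 genes, with sums of 20.8 and 196 FPKM and *Defa3* and *Mmp7* at 0 in *Dnmt1*-WT. Pancreatic acinar markers had smaller values for all 9 genes, with sums of 50.4 and 4.27 FPKM and 5 of them at 0 in *Dnmt1*-KO. The mucosa had been removed, yet epithelial markers were present in both libraries. Adipocyte markers had larger values for 8 of 10 genes, with sums of 185 and 1564 FPKM and *Lep* listed at 0 in *Dnmt1*-WT. Erythroid markers had larger values for 6 of 8 genes, with sums of 172 and 562 FPKM, *Hba-a1* at 0 in both libraries and *Hbb-b1* at 0 in *Dnmt1*-KO. Endothelial markers had larger values for 8 of 8 genes, with sums of 61.7 and 158 FPKM. For leukocyte markers all 8 genes had a ratio of at least 2, with sums of 49.6 and 188 FPKM. Fibroblast markers had larger values for 6 of 8 genes, but only *Col1a1* passed the limit, from 700.4 to 1518 FPKM, and *Pdgfra* was at 68.95 and 40.72 FPKM. Markers of interstitial cells of Cajal had smaller values for all 4 genes, with sums of 148 and 124 FPKM, but none was at 0.5 or less. Smooth muscle markers had smaller values for all 10 genes, of which 3 were at 0.5 or less. A ratio of at least 2 was found for 1 of 8 enteric neuron, 1 of 6 enteric glia, 0 of 6 mesothelium and 2 of 8 goblet cell markers. None of these was at 0.5 or less. Of 4 neutrophil markers above 0 in both libraries, 2 had a ratio of at least 2. Which cells express each glutathione or antioxidant gene cannot be read from whole tissue, and the part of these cell types in *Mt1*, *Mt2*, *Gpx2*, *Gpx3*, *Hmox1*, *Mgst1*, *Mgst2* and *Sod3* was not tested.

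**Figure D5:**
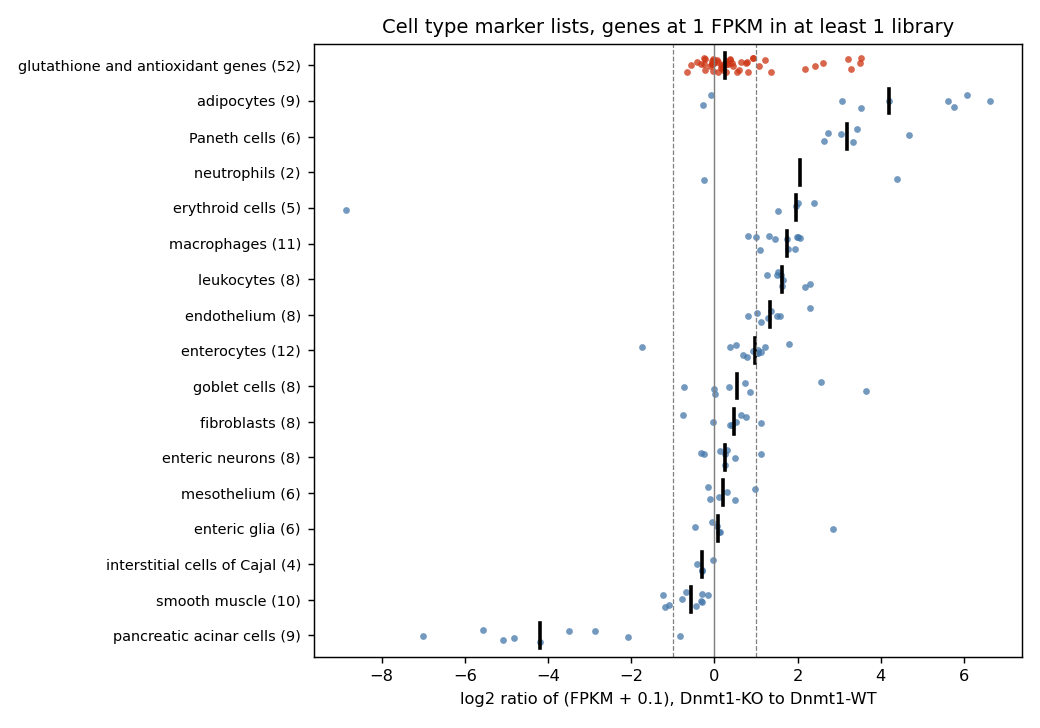
Log2 ratio of FPKM + 0.1, *Dnmt1*-KO to *Dnmt1*-WT, of each marker gene that reached 1 FPKM in at least 1 library, by cell type list (blue, number of genes in brackets), beside the glutathione and antioxidant genes (red), with medians as black bars and dashed lines at -1 and 1. Medians run from -4.19 for pancreatic acinar cells to 4.20 for adipocytes, and that of smooth muscle is -0.55.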

How the data were processed

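The authors deposited FPKM values for 2 libraries, 1 per genotype, with the number of transcript variants of each gene, and the submitters' processing notes name TopHat 1.4.1, Cufflinks 2.0.2 and the mm10 build (GRCm38). FPKM divides by transcript length and library total, so the values hold no read counts per gene and a gain in very abundant genes lowers all other values. The deposited column of the authors' own comparison, a ratio (fold) between genotypes, was not used. Groups were taken from the titles and genotype labels.

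Ratios of *Dnmt1*-KO to *Dnmt1*-WT were computed for genes above 0 FPKM in both libraries, with calls at 2 and 0.5, and log2 ratios used a pseudocount of 0.1. No test was possible. The calling step was tested on simulated data with planted 4-fold changes. That checks the computation and not the calls made in these 2 libraries. Genes were named by a rule: every gene of the group, and of each pathway list the called genes at 1 FPKM or more and the one with the highest mean of both libraries. *Keap1*, *Slc7a11*, *Ccs*, *Mtf1*, *Slc30a1*, *Mt3*, *Dpep3*, *Cyba*, *Blvra* and *Blvrb* were added after their values were seen. Some genes of the lists are not reported here by name. Members and lists were chosen with earlier results of these data known. Positions, transcript lengths and shared stretches of 50 bases came from GENCODE M21 (GRCm38), and promoter windows from RefSeq (GRCm38.p6). Scripts used Python 3.11.15, numpy 2.4.6 and pandas 2.3.3. Alternatives varied the scaling, pseudocount, fold, filter on low values, and centring by length or GC content.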

Additional observations from a re-analysis of the deposited data

How the results depend on the processing

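The number of glutathione and antioxidant genes with a ratio of at least 2 was between 10 and 12 of 55 under every scaling and centring tried and with a pseudocount of 1, and 10 of 51 without the genes that share over 10% of 50-base stretches with a listed gene, and none was at 0.5 or less. Of all genes, 11.8% had a ratio of at least 2 without rescaling and 11.5% after centring by length. That share was not computed for the other scalings, GC centring or the pseudocount of 1. Calls were lost for *Sod3* (1.98) and *Gstm6* (1.89) after division by the FPKM sum, for *Gstm6* after centring by length (1.90) or GC content (1.97), and for *Gstm6* (1.43) and *Gsta1* (1.27) with a pseudocount of 1. With a fold of 1.5, 18 of 55 genes were higher, beside 19.7% of all genes, and 1, *Gstt1*, was lower, beside 12.6%. At 10 FPKM or more these numbers were 11 and 1 of 37, beside 11.2% and 10.3%. Of the 183 pathway genes, 44 were higher and 17 lower at this fold, beside the same 19.7% and 12.6%. The median log2 ratio, 0.25, was 0.28 with the median of all genes set to 0 and by upper quartile, 0.15 by FPKM sum, 0.24 by trimmed mean, 0.26 and 0.24 with pseudocounts of 0.01 and 1, 0.23 without a filter, 0.21 at 10 FPKM, and 0.20 and 0.28 with centring by length and GC content, both added after seeing the data. The ratio of summed levels, 1.35, was 1.37, 1.26, 1.38 and 1.33 with the median set to 0, by FPKM sum, by upper quartile and by trimmed mean. Over these settings 34 genes stayed above a ratio of 1, 9 below, and 12 lay on both sides, including *Nfe2l2*, *Gclc*, *Gclm*, *Gstp1* and *Hmox2*. No counting error was computed, so the precision of ratios of genes under 1 FPKM is not given. With a pseudocount of 1, the ratios of *Gpx2* (4.5), *Gstp2* (5.07) and *Gstm3* (2.66) also moved by over 1.5 times and stayed above 2. No paired analysis was possible because each genotype has 1 library.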

Other observations

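The number of CpG dinucleotides in the 300-base promoter window differed. For a gene with several windows, the window with most CpG was used. The median was 10.5 for the 10 genes with a window and a ratio of at least 2, and 18 for the other 38 genes. Over all genes with a window and values above 0 in both libraries, the medians were 8 for the 1296 with a ratio of at least 2 and 22 for the 10635 under 2. *Gpx2* and *Mgst2* had 0 CpG in the window, while *Mt1* and *Mt2* had 24 each. Methylation was not measured in these libraries.

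The number of transcript variants listed was the same in both libraries for 47 of the 55 genes, or 85.5%, beside 73.9% of all genes. It was larger in *Dnmt1*-KO for *Mgst2*, *Gss*, *Gstm4*, *Gsta3* and *Gsto2*, and smaller for *Prdx5*, *Gstm1* and *Prdx6*.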
